A study of Sus scrofa with 35 samples.

Results

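The response of Creole pig muscle to heat lasting up to 5 days was described from 12 of the 35 arrays of the series. The members were chosen by their sample titles: 6 arrays of Creole pigs under heat stress (HS) and 6 of Creole pigs at thermoneutrality (TN). The other 23 arrays, of Large White pigs and of the Creole by Large White F1 cross, entered the fits and are used below only for contrast.

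Each array measured RNA from 1 castrated male growing pig raised in Guadeloupe, sampled in the longissimus dorsi of the back. The TN pigs were kept at 24 °C. The sample labels give 30 °C for the HS pigs, whereas the growth protocol gives 32 °C for 5 days. The study methods also give a constant 32 °C. They give less than 5 days of exposure for some of the HS pigs, and the labels do not say for which. According to the study methods, pigs had free access to feed, were not fasted before slaughter and came from blocks of littermates, and the TN pigs were killed before the room was warmed, whereas the HS pigs came from other pens and were killed after it. Slaughter day, age and pen therefore cannot be told apart from temperature here, and p-values treat littermates as independent animals. In a muscle sample of mixed cells, more cells of a type and more RNA per cell cannot be told apart.

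The Creole is a small, fatty breed of the tropics that is known for its tolerance of heat. Skeletal muscle is a main store of glycogen, which phosphorylase kinase and glycogen phosphorylase mobilise for glycolysis, and its mitochondria produce much of the heat of the body. Cells exposed to high temperature classically induce heat shock proteins, which hold or refold damaged proteins. Pigs under prolonged heat eat less and produce less heat.

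Values are log2 intensities of 60-base probes after quantile normalisation, without background subtraction, so that differences of dim probes are understated. A change is HS minus TN on the log2 scale, and a probe was called at a Benjamini-Hochberg adjusted p under 0.05 in limma, adjusted over the 41517 probes kept. The first 30 bases of 8 probes are shown, for genes of glycogen, lactate, hormone response, heat shock proteins, filaments and macrophages. Those of KLF9 and NES are further probes, dimmer than the ones whose levels are given below. All letters are in lower case because no motif is marked.
EPM2A, glycogen phosphatase: cagtttaatacaatacacagttactgtgcc
GYS1, glycogen synthase: ctcgcctctcctttggaatcctcaatactc
LDHB, lactate dehydrogenase: gtcaaagcccatgcttagtttaatgctttc
KLF9, hormone-responsive factor: acagacactgattgttgtcagtttgcaggt
HSP90AB1, constitutive HSP90: tctcctctgctgatgtctagtggttttatt
HSP70.2, inducible HSP70: tgagcacaagaggaaggagctggagcaggt
NES, intermediate filament protein: caatctctggaaaaggaaaatcaagaaaca
VSIG4, macrophage receptor: ctgcactgtgagtctagtgttctcataccc
These 8 probes changed by -0.76, -0.66, 0.63, -0.87, 0.61, -0.50, 1.12 and 1.83 in this order, and all except that of HSP70.2 (adjusted p = 0.43) were called.

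On the 12 Creole arrays 63.91% to 75.85% of probes exceeded background clearly, no spot was saturated, and Pearson's r between Creole arrays ran from 0.953 to 0.9935 across probes, which are not independent. All 15 skeletal muscle fibre markers were bright, each above at least 92.4% of kept probes. Skeletal actin (ACTA1), creatine kinase (CKM) and fast myosin (MYH4) had mean log2 intensities of 19.37, 19.28 and 18.99. The 75th percentile of the raw log2 signal was 9.03 ± 0.13 on the TN arrays and 9.27 ± 0.27 on the HS arrays (SD, n = 6 each, exact two-sided permutation p = 0.0844, adjusted over 4 array measures 0.338). Creole TN array 1 had the lowest leukocyte marker level, 7.74 against 8.39 to 9.51 on the other TN arrays, and the lowest macrophage and connective tissue levels. Results are therefore given with and without it.

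Heat in Creole muscle was accompanied by lower levels of some glycogen and energy metabolism genes and by higher levels of some complement, macrophage and ribosomal genes and of HSP90AB1. A total of 792 of 41517 probes (1.91%) were called. Of these 429 (1.03%) were higher and 363 (0.874%) lower in HS, and they covered 147 and 166 genes with a symbol. The median size of a called change was 0.63 log2. Large changes went mostly upwards: 130 called probes rose by more than 1 log2 and 15 fell by more than 1. The share of higher calls, 54.2%, was 38.9% under 75th percentile scaling, 43.6% with the processed signal and 78.8% when arrays were scaled to spike-in controls. Groups that did not overlap were found for 793 probes (1.91%), 387 (0.932%) with every HS array above every TN array and 406 (0.978%) with every HS array below.

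The count rested on Creole TN array 1. Without it no probe was called in limma (smallest adjusted p = 0.071, 6192 probes at an unadjusted p under 0.05, against 8946 with it). All 792 probes kept their sign and an unadjusted p under 0.05 without that array, and their adjusted p did not exceed 0.173. This follows largely from their choice, since all other arrays were the same in both fits, and it does not restore the calls. Without TN arrays 2 to 6 the count was 1540, 1471, 534, 193 and 155, and without HS arrays 1 to 6 it was 55, 1663, 159, 422, 235 and 80. A total of 40 probes of 20 genes were called in 11 of the 12 fits that left out 1 array. With only the 12 Creole arrays in the fit, no probe was called (smallest adjusted p = 0.0744, 8256 probes at an unadjusted p under 0.05). On each of the 4 slides that held both Creole groups, 724 of the 792 probes (91.4%) had the same sign, against 28.9% of all kept probes. That is a description only, since the 792 probes were chosen on these arrays. The difference was smallest on slide 2, whose only HS array was array 2, for 58 of the 73 called probes named by rule.

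**Figure D1:**
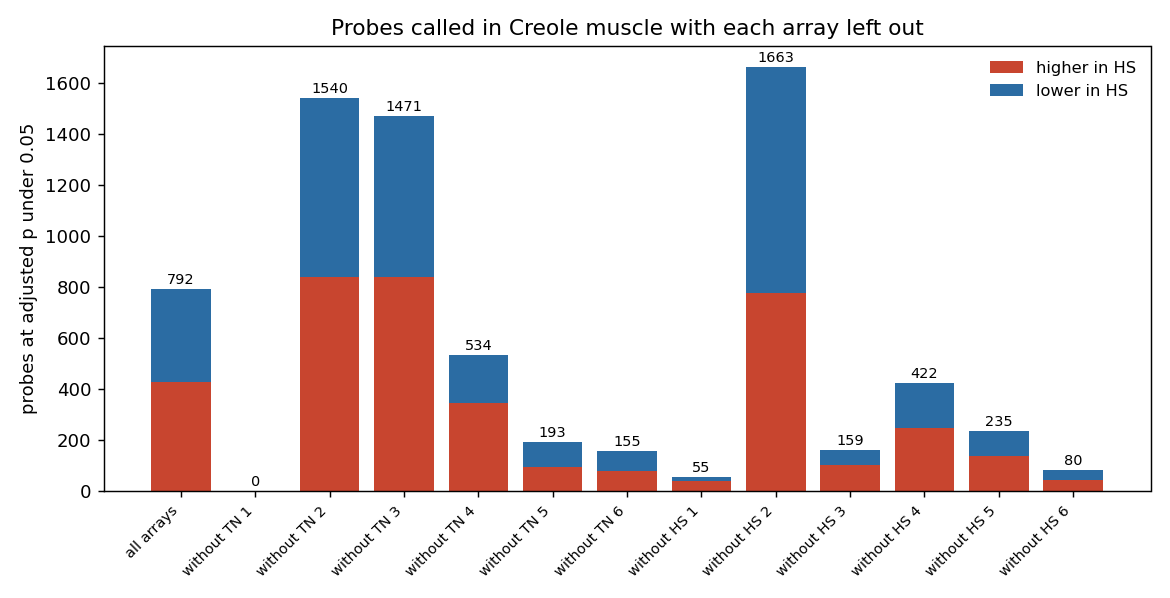
Number of probes called at an adjusted p under 0.05 in Creole muscle (vertical axis) with all arrays and with each of the 12 Creole arrays left out in turn (horizontal axis), divided into probes higher and lower in HS. The count was 792 with all arrays, 0 without TN array 1 and 1663 without HS array 2.

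Several genes of glycogen turnover fell. Of 18 measured genes of glycogen synthesis and breakdown, 5 fell and none rose, against 0.983% of 9563 genes called lower by their brightest probe and 1.2% called higher. A change below 0 was seen for 16 of 18, against 5271 of all 9563 genes, and the median change was -0.41, against -0.03 for all genes. EPM2A, the laforin phosphatase that removes phosphate from glycogen, ran from 11.47 to 12.30 in TN (median 11.86) and from 10.94 to 11.63 in HS (median 11.02). It fell by 0.76 (SE 0.14, limma adjusted p = 0.0195), and only HS array 2 lay within the TN range. Glycogen synthase GYS1 ran from 9.87 to 10.54 in TN (median 9.97) and from 9.23 to 9.57 in HS (median 9.40), so that every HS array was below every TN array. It fell by 0.66 (SE 0.12, adjusted p = 0.0195), and both genes were called in 11 of 12 fits.

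The kinase that switches on glycogen breakdown was lower in 2 of its subunits. Its regulatory subunit PHKA1 had a median of 14.70 in TN (range 14.50 to 14.79) and of 13.75 in HS (range 13.05 to 14.50). The fall was 0.93 (SE 0.20, adjusted p = 0.0255), with all 6 HS arrays below the TN mean. The beta subunit PHKB went from a median of 11.77 (11.57 to 12.30) to 10.89 (10.64 to 11.63), a fall of 0.82 (SE 0.19, adjusted p = 0.0311). Muscle glycogen phosphorylase PYGM, the enzyme that frees glucose units, went from 17.07 (16.89 to 17.13) to 16.37 (15.95 to 16.97) and fell by 0.65 (SE 0.15, adjusted p = 0.0311). In each of these 3 genes HS array 2 was the highest HS array and HS array 1 the lowest. The other 13 glycogen genes were not called; among them phosphoglucomutase PGM1, which was named after its value was seen, differed by -0.54 (adjusted p = 0.0616).

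Glycolysis moved less evenly. Of 24 genes 2 fell and 1 rose, against 0.983% and 1.2% of all genes, with a median of -0.24. Phosphoglycerate kinase PGK1 ran from 17.38 to 17.74 in TN and from 16.58 to 17.46 in HS and fell by 0.58 (SE 0.14, adjusted p = 0.0311). A call in the same direction was made for 3 of the 6 further PGK1 probes. Aldolase ALDOA fell by 0.45 (SE 0.11, adjusted p = 0.0322). Dimmer probes of triose phosphate isomerase TPI1 and of PFKFB1, a bifunctional regulator of fructose 2,6-bisphosphate, fell by 0.86 and 0.86 (adjusted p = 0.0487 and 0.0434). TPI1 was called in 1 of 12 fits. LDHB, the heart-type lactate dehydrogenase subunit, went the other way. Its levels were 13.79 to 14.64 in TN (median 14.45) and 14.82 to 15.25 in HS (median 14.91), so that the groups did not overlap. It rose by 0.63 (SE 0.13, adjusted p = 0.0236), was called in 11 of 12 fits, and a rise was called for 10 of 12 further LDHB probes. Creatine and adenylate genes were mixed. Adenylate kinase AK1 and the muscle adenylosuccinate synthase ADSSL1 fell by 0.61 and 0.76 (adjusted p = 0.0369 and 0.0476), and GATM, the first enzyme of creatine synthesis, rose by 0.83 (SE 0.19, adjusted p = 0.0299).

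**Figure D2:**
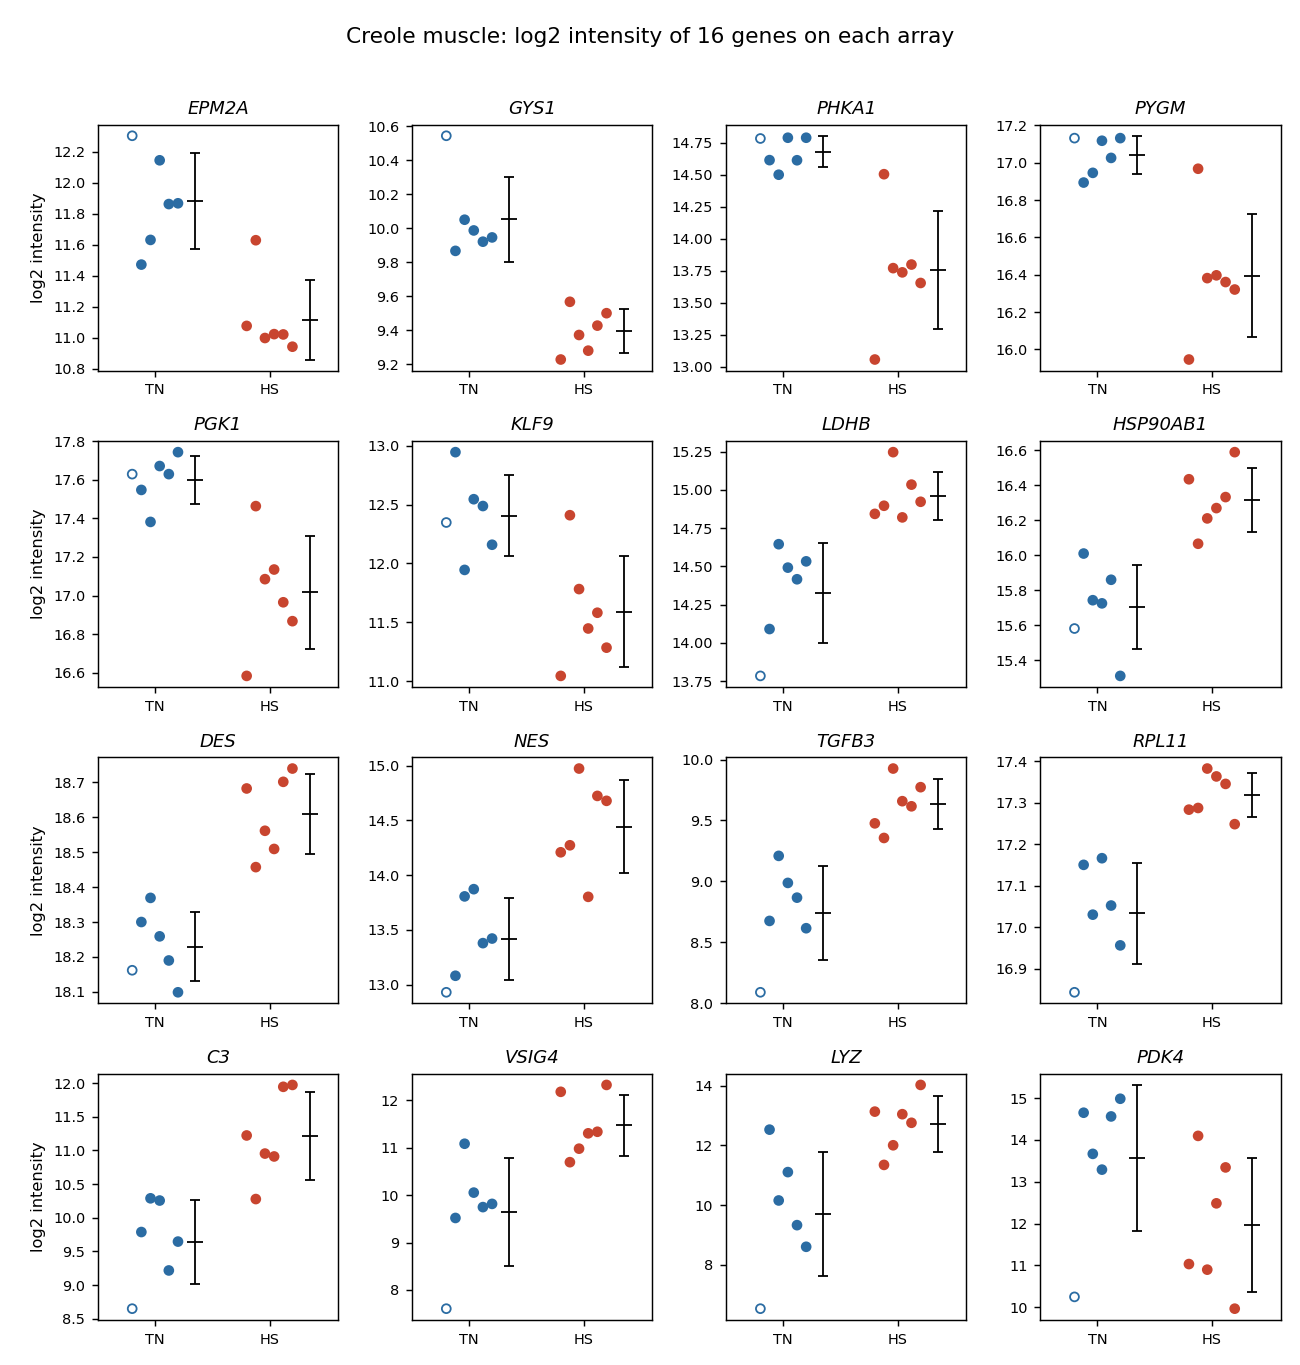
log2 intensity (vertical axes, which differ and do not start at 0) of 16 genes on each of the 6 TN and 6 HS Creole arrays, by replicate number from left to right, with TN array 1 as an open circle and the mean ± SD of each group beside the points. Groups did not overlap for GYS1, LDHB, HSP90AB1, DES, TGFB3 and RPL11, whereas PDK4 and LYZ had wide spreads in TN (10.25 to 14.98 and 6.53 to 12.53).

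Few mitochondrial genes were called, and by their brightest probes these were falls. Of 31 nuclear-encoded subunits of complexes III and IV and ATP synthase, 4 fell, against 0.983% of all genes, and none rose. A change below 0 was seen for 29 (median -0.22), against 5271 of all 9563 genes. UQCRFS1, the iron-sulphur protein of complex III, fell by 0.53 (SE 0.13, adjusted p = 0.0311). Cytochrome c1 (CYC1) and the complex IV subunit COX7C fell by 0.42 each (adjusted p = 0.0472 and 0.0387). The alpha subunit of ATP synthase, ATP5A1, fell by 0.35 (SE 0.09, adjusted p = 0.0425), with calls for 4 of 14 further probes.

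No gene of complex I or of the pyruvate dehydrogenase and TCA cycle list was called by its brightest probe, although 30 of 33 and 22 of 23 lay below 0. At an unadjusted p under 0.05 in limma the count was 17 in each list, 51.5% and 73.9% of their genes, against 23.9% of all genes. The medians were -0.26 and -0.28. By any of their probes 2 and 5 genes of these lists fell, against 166 of all 9563 genes. The complex I subunit NDUFV1 differed by -0.58 (adjusted p = 0.0586) and the isocitrate dehydrogenase subunit IDH3A by -0.49 (adjusted p = 0.0637). TFAM, which packages and transcribes mitochondrial DNA, fell by 0.26 (SE 0.07, adjusted p = 0.046), with levels of 11.22 to 11.44 in TN and 10.89 to 11.22 in HS. With spike-in scaling its change was -0.12 (adjusted p = 0.79). None of 3 further TFAM probes was called, and their changes ran from -0.25 to 0.01. The 13 mitochondrially encoded subunits had a median of -0.13, with none called in limma by its brightest probe. At an unadjusted p under 0.05 there were 3 (23.1%), near the 23.9% of all genes. A further probe of the complex I subunit ND4 fell by 0.43 (adjusted p = 0.0475). Of 29 fatty acid genes 1 fell, the isomerase ECI1 (-0.73, SE 0.19, adjusted p = 0.0413), against 0.983% of all genes. Of 18 fuel genes that respond to fasting none was called in limma by its brightest probe. At an unadjusted p under 0.05 there were 7 (38.9%), against 23.9% of all genes. PDK4, which blocks pyruvate dehydrogenase, had a median of 14.11 in TN (10.25 to 14.98) and of 11.76 in HS (9.96 to 14.10), and it differed by -1.60 (SE 0.85, adjusted p = 0.27). Its only low TN value was that of array 1, and without this array the change was -2.26. ANGPTL4, a lipase inhibitor induced in fasting, differed by -0.54 (SE 0.54, adjusted p = 0.597).

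Some genes linked to thyroid hormone action and heat production fell. Of 17 genes 4 fell, against 0.983% of all genes, none rose, and 16 lay below 0 (median -0.25). KLF9, a transcription factor induced by thyroid hormone and glucocorticoids, ran from 11.94 to 12.95 in TN (median 12.42) and from 11.04 to 12.41 in HS (median 11.51). It fell by 0.81 (SE 0.21, adjusted p = 0.0383). A fall was called for 8 of 10 further KLF9 probes, 2 of which fell by 0.87 each. On slide 2 its HS array was above the mean of the TN arrays by 0.16, against differences of -1.60, -0.71 and -0.65 on the other slides. The calcium pump ATP2A1, which uses ATP in fast fibres, ran from 15.01 to 15.67 in TN and from 13.97 to 14.75 in HS. It fell by 0.74 (SE 0.17, adjusted p = 0.0311), and every HS array was below every TN array. A fall was called for only 1 of 4 further ATP2A1 probes, and 1 differed in the opposite direction (0.38, not called). Mitochondrial glycerol-3-phosphate dehydrogenase GPD2 fell by 0.55 (adjusted p = 0.0444) and SLC16A10, a transporter of aromatic amino acids and thyroid hormones, by 0.53 (adjusted p = 0.0344). In both the groups did not overlap. KLF9 was also the only called gene among 17 of the glucocorticoid list, whose median was -0.34.

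Few heat shock genes were called. HSP90AB1, the constitutive cytosolic HSP90, was 15.31 to 16.01 in TN (median 15.73) and 16.07 to 16.59 in HS (median 16.30). The groups did not overlap, and it rose by 0.61 (SE 0.13, adjusted p = 0.0243). A rise was called for only 1 of 6 further HSP90AB1 probes, whose changes were smaller, 0.25 to 0.45. HSP90AB1 was the only called gene of 16 in the list of HSP90 proteins, chaperonins and HSP90 co-chaperones. Of these, 15 lay above 0 (median 0.22), against 44.9% of all genes. The heat-inducible HSP90AA1 differed by 0.41 (SE 0.21, adjusted p = 0.255), and the chaperonin subunit CCT2 by 0.35 (adjusted p = 0.0575).

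HSP70.2, the inducible HSP70, lay outside the naming rule and was chosen for its role. Its brighter probe was 12.31 ± 0.75 in TN and 11.82 ± 0.81 in HS (SD, n = 6 each), a difference of -0.50 (SE 0.36, adjusted p = 0.43), and the second probe differed by -0.46 (SE 0.29). Both values lie within the spread between arrays. HSPA8, the constitutive HSP70, differed by -0.10 (SE 0.13, adjusted p = 0.695). Of 15 HSP70, HSP110 and BAG genes, 1 fell by its brightest probe, against 0.983% of all genes. This was the co-chaperone ligase STUB1 (-0.40, SE 0.11, adjusted p = 0.0476). The HSP70 family member HSPA13 differed by 0.48 (adjusted p = 0.09) by its brightest probe, and its other probe rose by 0.57 (SE 0.15, adjusted p = 0.0409). HSPA13 was named after its values were seen. None of 6 small heat shock proteins was called in limma, nor was any at an unadjusted p under 0.05. HSPB1 differed by 0.30 (SE 0.19) and CRYAB by 0.39 (SE 0.24). Of 28 DNAJ co-chaperones 1 fell, DNAJC7 (-0.44, SE 0.10, adjusted p = 0.0309), against 0.983% of all genes. A change below 0 was seen for 20, against 5271 of all 9563 genes. The 23 genes of endoplasmic reticulum folding had a median of 0.25 with none called. At an unadjusted p under 0.05 there were 2 (8.7%), against 23.9% of all genes. Heat shock factor HSF1 differed by -0.14 (SE 0.10, adjusted p = 0.409).

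**Figure D3:**
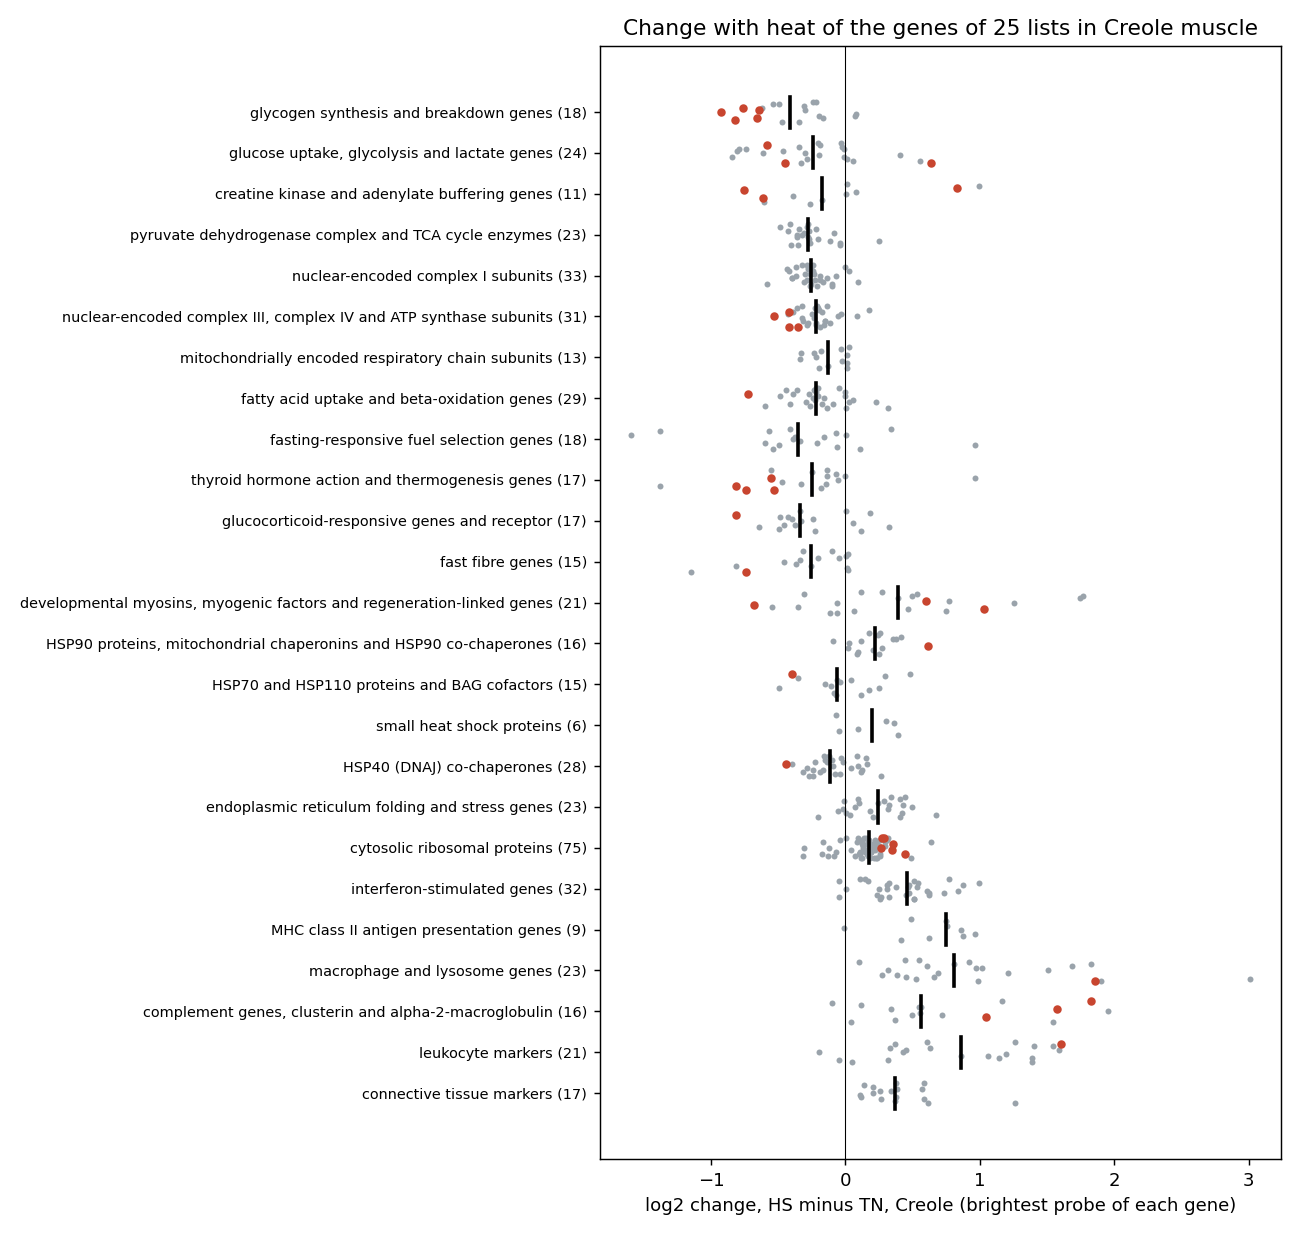
log2 change of each gene (points, by its brightest probe) of 25 lists in Creole muscle, with genes called at an adjusted p under 0.05 in red, the others in grey, the list median as a black bar and the number of genes measured in brackets. Medians ran from -0.41 for glycogen genes to 0.86 for leukocyte markers, and 0.22 for the HSP90 list stood beside -0.06 for the HSP70 list.

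Some cytosolic ribosomal proteins rose. Of 75 genes 6 rose, against 1.2% of all genes, none fell, 66 lay above 0, and changes ran from -0.31 to 0.64 with a median of 0.18. The mean level of the list ran from 15.25 to 15.34 on TN arrays and from 15.44 to 15.49 on HS arrays, without overlap, and 12 of 75 genes did not overlap between groups, against 2.19% of all genes. RPL11 ran from 16.84 to 17.17 in TN and from 17.25 to 17.38 in HS and rose by 0.29 (SE 0.06, adjusted p = 0.0236). RPS20, RPL13A and RPL6 rose by 0.35, 0.44 and 0.35 (adjusted p = 0.03, 0.0322 and 0.0402). A dim probe of RPL7 rose by 0.54 (SE 0.10, adjusted p = 0.0195), but none of the 16 other RPL7 probes was called. Ribosomal protein genes have near-identical copies, so that a probe may measure more than 1 gene. Under 75th percentile scaling the list median was 0.031, against 0.18 with spike-in scaling. The changes of RPL11, RPS20, RPL13A and RPL6 were then 0.15, 0.051, 0.30 and 0.061, none of them called, and none was called with the processed signal or with spike-in scaling. By any of their probes 13 of the 75 ribosomal genes rose, against 147 of all 9563 genes, and many ribosomal genes have several probes. Of 56 mitochondrial ribosomal proteins, 3 fell, against 0.983% of all genes, and none rose. These were MRPL38, MRPS18A and MRPS25, which fell by 0.38 to 0.41. With spike-in scaling MRPL38 and MRPS18A changed by -0.23 and -0.25 and were not called.

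Among fibre genes the intermediate filament protein desmin (DES) rose by 0.38 (SE 0.09, adjusted p = 0.0319), from 18.10 to 18.37 in TN to between 18.46 and 18.74 in HS. The DES call was lost when arrays were scaled to their 75th percentile, their median or the spike-in controls, with changes of 0.088, 0.18 and 0.24, and with the processed signal, where DES changed by 0.066 (adjusted p = 0.562, 0.174, 0.221 and 0.734). By any of their probes 3 of 15 fibre markers and 5 of 15 fast fibre genes fell, against 166 of all 9563 genes. A gene with more probes has more chances of such a call. Under 75th percentile scaling the 15 fibre markers had a median of -0.27, against -0.02. NES, the filament protein nestin of immature and regenerating fibres, ran from 12.93 to 13.87 in TN (median 13.40) and from 13.80 to 14.97 in HS (median 14.47). It rose by 1.03 (SE 0.21, adjusted p = 0.022), with a rise called for 3 of 6 further probes. NCAM1, an adhesion molecule of immature and denervated fibres, rose by 0.60 (SE 0.16, adjusted p = 0.0475), without overlap. MYBPH, a myosin binding protein, fell by 0.68 (SE 0.17, adjusted p = 0.0342). The embryonic myosin MYH3 spread from 9.45 to 14.85 in TN and from 11.70 to 16.63 in HS, and its difference of 1.75 (SE 0.89, adjusted p = 0.249) was within that spread. TGFB3, a growth factor of the TGF-beta family, rose by 0.89 (SE 0.16, adjusted p = 0.0195), from between 8.09 and 9.21 to between 9.36 and 9.93. It was called in 11 of 12 fits, and with all arrays both further TGFB3 probes were called too.

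Among the 12 largest called rises were genes with roles in immune cells. PADI2, an enzyme that converts arginine to citrulline, ran from 8.27 to 11.90 in TN (median 10.75) and from 11.92 to 13.45 in HS (median 12.44) and rose by 1.99 (SE 0.54, adjusted p = 0.0487). ACP5, the acid phosphatase of osteoclasts and macrophages, rose by 1.86 (SE 0.50, adjusted p = 0.0458), from 8.10 to 11.27 in TN to 11.36 to 12.02 in HS. In both the lowest TN value was that of array 1. VSIG4, a complement receptor of resident macrophages, had a median of 9.78 in TN (7.60 to 11.08) and of 11.32 in HS (10.70 to 12.33). It rose by 1.83 (SE 0.43, adjusted p = 0.0304), with a rise called for 5 of 6 further probes. The chemokine receptor CX3CR1, the cytokine IL18 and the lysosomal membrane protein LAPTM5 rose by 1.83, 1.76 and 1.61 (adjusted p = 0.0294, 0.0304 and 0.0425). AWN, which carries the name of a sperm adhesin, rose by 1.96 (SE 0.42, adjusted p = 0.0267), from 5.29 to 7.32 to 7.38 to 8.75.

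Of 16 complement genes 3 rose, against 1.2% of all genes, and none fell. A change above 0 was seen for 15 (median 0.56), against 44.9% of all genes. C3, the central complement component, went from 9.72 (median, 8.65 to 10.29) to 11.09 (10.28 to 11.97) and rose by 1.57 (SE 0.35, adjusted p = 0.0285). All 5 further C3 probes rose. C4A rose by 1.05 and clusterin (CLU), an extracellular chaperone and complement inhibitor, by 1.82 (adjusted p = 0.0332 and 0.0424). All 23 macrophage and lysosome genes lay above 0, with a median of 0.81 and 20 at an unadjusted p under 0.05, but only ACP5 was called. Lysozyme (LYZ) had the largest change of any gene's brightest probe, 3.01 (SE 0.88, adjusted p = 0.0625), over levels of 6.53 to 12.53 in TN and 11.34 to 14.02 in HS. None of 9 MHC class II genes was called in limma by its brightest probe, with 5 at an unadjusted p under 0.05 and a median of 0.75. SLA-DRA differed by 0.86 (SE 0.25, adjusted p = 0.0586), and of its 6 further probes 1 was called, with a rise of 0.98 (adjusted p = 0.0268). None of 32 interferon-stimulated genes was called, with 10 at an unadjusted p under 0.05, 30 above 0 and a median of 0.46. The shares at an unadjusted p under 0.05 were 87%, 55.6% and 31.2% in the macrophage, MHC class II and interferon lists. Over all genes the share was 23.9%, so that the interferon list lay near it.

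Marker lists of other cell types moved with these genes. Of 21 leukocyte markers 19 lay above 0 (median 0.86), against 44.9% of all genes, and 1, LAPTM5, was called higher, against 1.2%. Their mean level was 7.74 to 9.51 in TN (median 8.69) and 9.15 to 10.29 in HS (median 9.39). The only 2 markers below 0 were the pan-leukocyte gene PTPRC (-0.05) and the B cell gene MS4A1 (-0.20). The myeloid genes CSF1R and FCER1G differed by 1.26 and 1.59 (adjusted p = 0.0688 and 0.0629). PTPRC, MS4A1 and CSF1R were named after their values were seen, so that these genes do not set lymphoid against myeloid cells. All 17 connective tissue markers lay above 0 (median 0.37), and none was called in limma. At an unadjusted p under 0.05 there were 8 (47.1%), against 23.9% of all genes. The mean level of this list ran from 10.66 to 12.01 in TN and from 11.85 to 12.17 in HS. The median of leukocyte markers was 0.48 and that of connective tissue markers 0.16 without TN array 1. With the leukocyte mean as a covariate no probe was called (smallest adjusted p = 0.23, 4214 at an unadjusted p under 0.05), and the medians of the macrophage, complement and glycogen lists were -0.0048, 0.14 and -0.18. The medians of the endoplasmic reticulum folding, regeneration, MHC class I and mitochondrial biogenesis lists turned from 0.25, 0.39, 0.25 and -0.24 to -0.12, -0.062, -0.071 and 0.053 in that fit. With array brightness as a covariate no probe was called either (smallest adjusted p = 0.0586, 5310 at an unadjusted p under 0.05). The medians of the macrophage, complement and glycogen lists were then 0.51, 0.35 and -0.23. Haemoglobin beta (HBB) was lower on every HS array than on any TN array, 7.23 to 8.24 against 8.27 to 9.28, with a change of -1.24 that was not called (SE 0.38, adjusted p = 0.0737). Adipocyte and endothelial markers had medians of -0.04 and -0.13, with none called in limma. At an unadjusted p under 0.05 there were 2 of each list, 14.3% and 22.2%, against 23.9% of all genes. The leukocyte mean was itself higher in HS (median 9.39 against 8.69) and includes macrophage genes. Its fit therefore cannot tell heat from other cells, and the smaller macrophage median follows in part from the choice of covariate. The part of other cells and of array brightness in these differences was not tested.

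**Figure D4:**
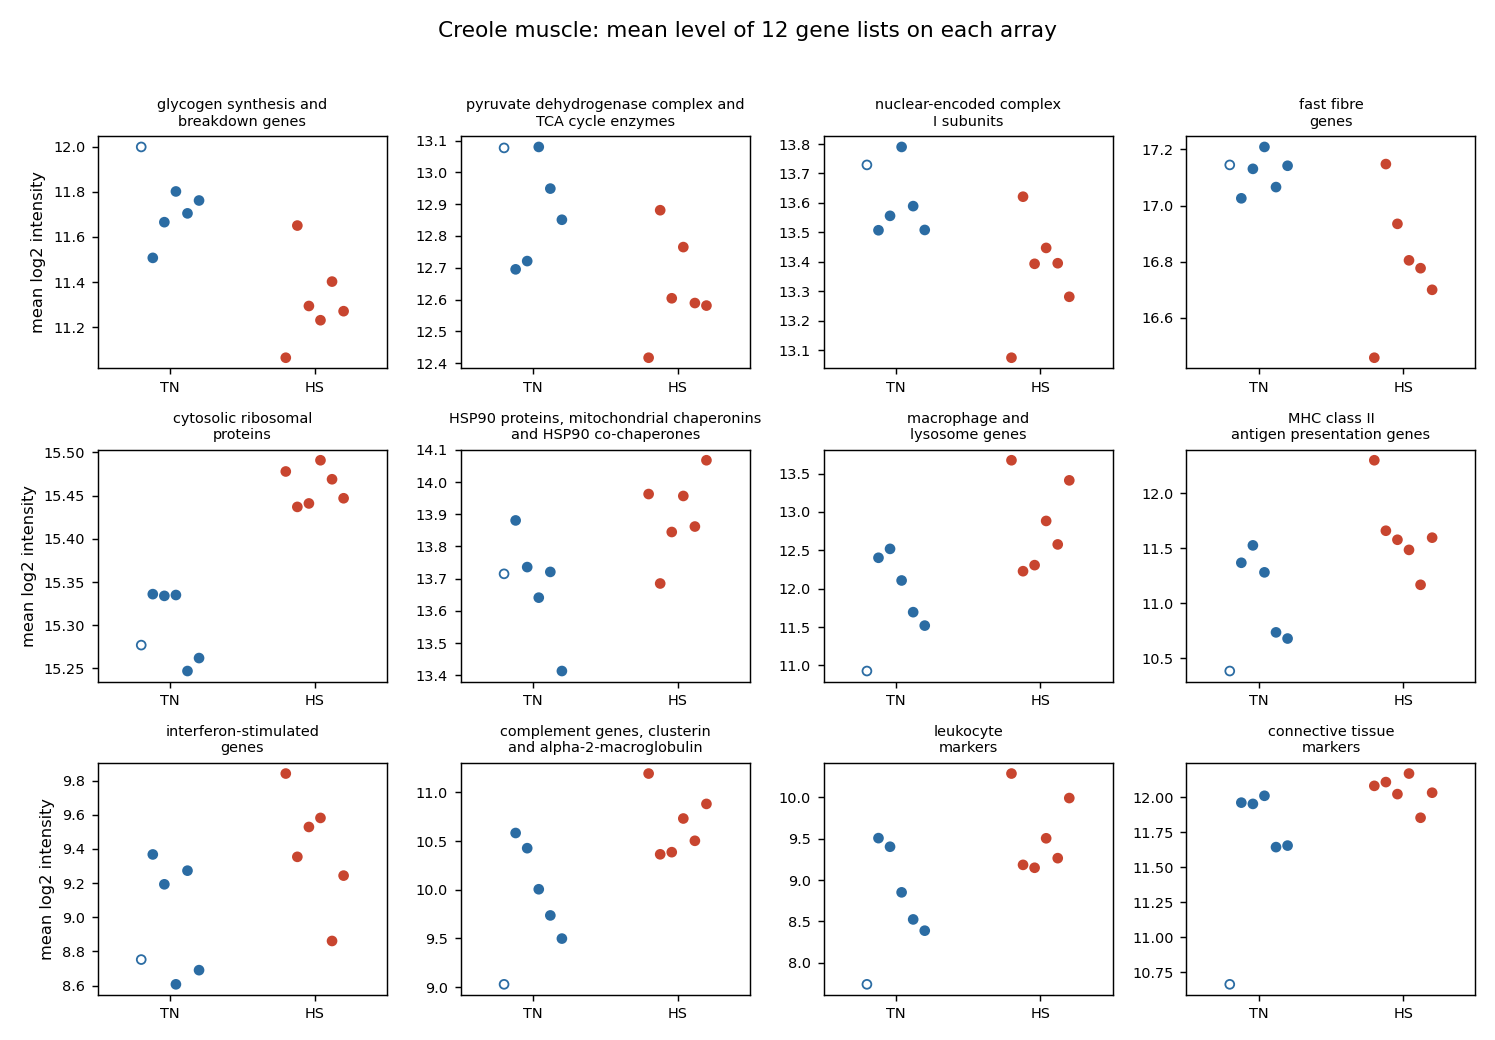
Mean log2 intensity of 12 gene lists (vertical axes, which differ and do not start at 0) on each of the 6 TN and 6 HS Creole arrays, with TN array 1 as an open circle. Ribosomal levels did not overlap (15.25 to 15.34 against 15.44 to 15.49), and TN array 1 was lowest for leukocyte markers (7.74) and connective tissue markers (10.66).

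The falls outside metabolism included BTC, a ligand of the EGF receptor, which went from 11.16 (median, 10.14 to 11.45) to 9.79 (8.89 to 10.51) and fell by 1.21 (SE 0.28, adjusted p = 0.0311). The haem exporter FLVCR1 fell by 1.13 (SE 0.25, adjusted p = 0.0268), TMEM143 by 1.04 (SE 0.19, adjusted p = 0.0195) and WFIKKN2, a myostatin binding protein, by 0.91 (SE 0.24, adjusted p = 0.0449). GC, the vitamin D binding protein, fell by 1.04 (SE 0.24, adjusted p = 0.0303), and 4 of 6 HS arrays had a signal well above background. The smallest p-values belonged to genes that changed by less than 1 log2 except NES and TMEM143. TIFAB and TMEM154 rose by 0.75 and 0.77, and NDUFA4L2, ANAPC5 and DHRS7B fell by 0.53, 0.57 and 0.54 (adjusted p = 0.0195 each). Neither of 2 further ANAPC5 probes was called (-0.20 and -0.16). STRA6, a retinol transporter, rose by 1.04 (adjusted p = 0.0225), but of 3 further probes 1 was called in the opposite direction.

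The Creole response was set beside those of the other genetic groups, whose TN and HS arrays were their own. In F1 and in Large White pigs 2 probes each were called (0.00482%). The called Creole probes had the same sign in Large White for 97.3% and in F1 for 94.4%, against 73.2% and 61.7% of all kept probes, and their median absolute change there was 0.37 and 0.28. The Creole probes were chosen for their size in Creole, so that a smaller size elsewhere is no finding. The difference itself was tested. No probe was called for Creole minus the mean of the other groups (0%, smallest adjusted p = 0.969, 1455 at an unadjusted p under 0.05), for Creole minus Large White (0%, smallest adjusted p = 1, 1234 at an unadjusted p under 0.05) or for Creole minus F1 (0%, smallest adjusted p = 0.823, 2078 at an unadjusted p under 0.05). This does not show that the groups responded alike.

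Single genes ranged widely. C3 changed by 1.57, 1.28 and 1.41 and CLU by 1.82, 1.51 and 1.55 in Creole, F1 and Large White. PYGM changed by -0.65, -0.38 and -0.41 (SE 0.15 to 0.16), with a Creole minus others difference of -0.25 (SE 0.19). HSP90AB1 changed by 0.61, 0.32 and 0.33, a difference of 0.29 (SE 0.16). GC changed by -1.04 in Creole, -0.12 in F1 and -0.09 in Large White. Its Creole minus others difference was -0.93 (SE 0.30, adjusted p = 0.969). The smallest unadjusted p among named genes was that of NISCH, which binds integrins, with changes of 0.58, -0.22 and -0.02 and a difference of 0.70 (SE 0.16, unadjusted p = 0.000127, adjusted p = 0.969). Of 4 further NISCH probes 1 was called higher in Creole HS and 1 differed in the opposite direction (-0.08).

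**Figure D5:**
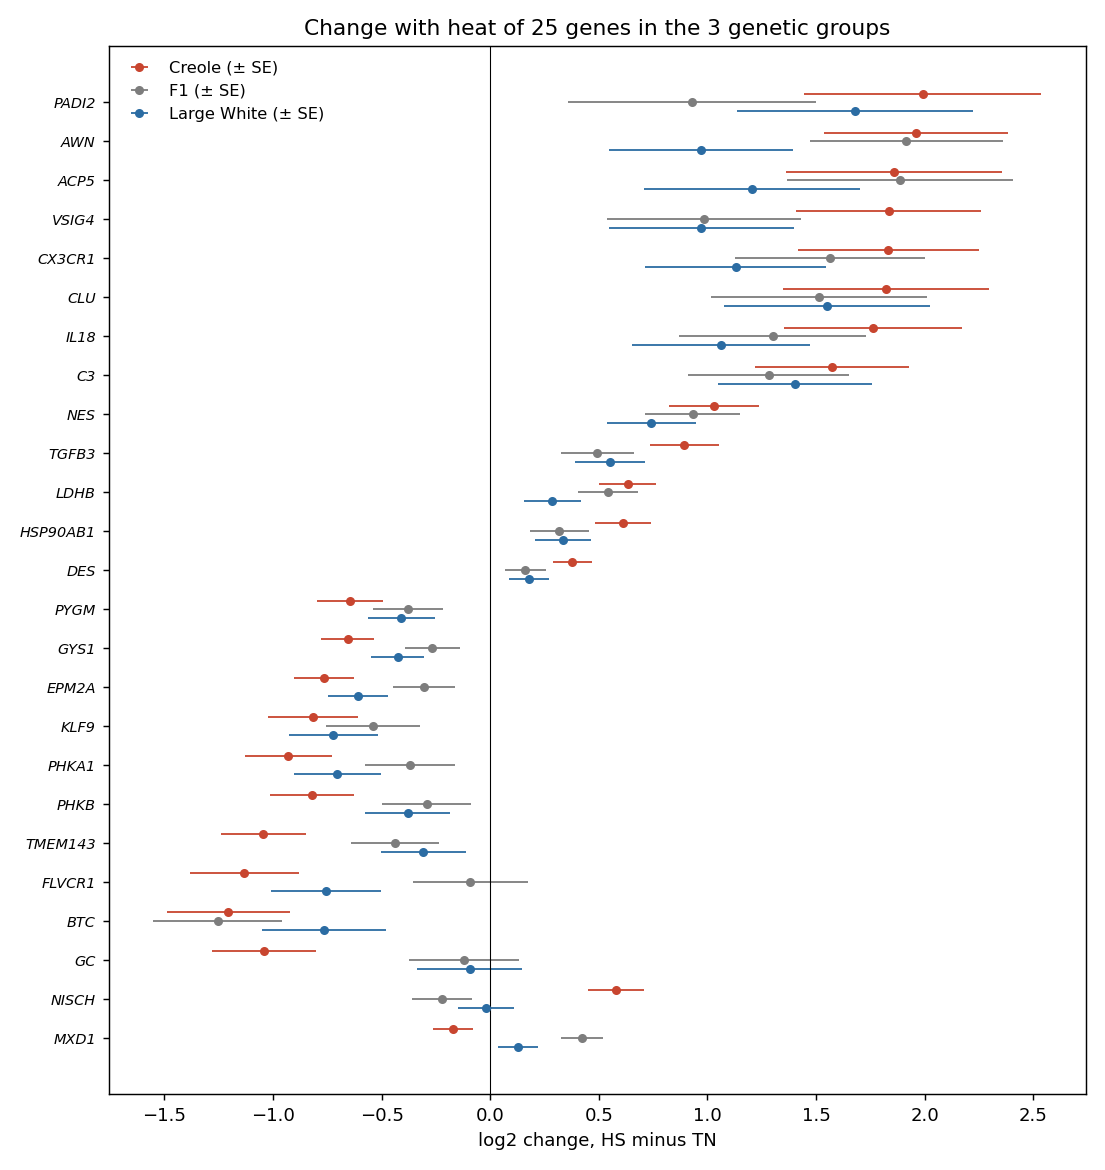
log2 change with heat (horizontal axis, HS minus TN, ± SE) of 25 genes in Creole, F1 and Large White muscle. C3 and CLU lay above 1 in all 3 groups, whereas NISCH was 0.58 in Creole and -0.22 in F1.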

How the data were processed

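RNA of 35 muscle samples was labelled with Cy3 by the authors and hybridised to 1-colour Agilent arrays, and the authors read the spots with Feature Extraction 10.10.1.1. The deposited scanner output gives linear intensity (median, mean, local background and processed signal) and quality flags. A deposited table of log2 values, quantile-normalised by the authors from the median intensity, served as an alternative; all 35 columns matched their arrays best.

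The median intensity was quantile-normalised here, log2 was taken, control and outlier spots were left out, and 41517 of 60305 probes were kept, those flagged well above background in 75% or more of any group's arrays. A symbol was found for 23927 probes through RefSeq (Sscrofa11.1, names only) and the gene names of the files. Probes were not mapped to the genome. limma 3.58.1 (R 4.3.3) fitted 1 mean per group on all 35 arrays, which share the spread, with Benjamini-Hochberg adjustment. The random terms of the study's model (pen, slaughter day, parents) could not be included, since the labels lack them. A gene in a list stands for its brightest kept probe. Named genes are the 12 largest rises and falls among called probes, the 10 smallest p-values, up to 4 called genes (otherwise the 2 with the smallest p) of each list, the 6 smallest p-values for the difference from other breeds, the 8 smallest p-values without Creole TN array 1, and 12 genes of prior interest, with exceptions marked in the text. The members, lists and rules were chosen with earlier results of these data known. The fit was tested on simulated arrays, where it recovered 86.5% of 200 probes changed by 1 log2 among 41465 with 11 false calls. The median called change in the data was smaller, 0.63 log2, so that this share does not give the recovery of such changes. The number of arrays limits the precision. Other scalings, background corrections, filters, covariates, slide blocks, array weights and leaving out each array were tried. Figures were drawn with matplotlib.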

Additional observations from a re-analysis of the deposited data

Results flagged for a closer look

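Of 382 combinations of group and measure checked, 30 had a highest or lowest array that stood apart from the other 5 by Dixon's gap ratio, and chance alone gives about 19.1. Creole TN array 1 was lowest for the regeneration list (gap ratio 0.777, level 11.10 against 11.97 on the next array), connective tissue markers (0.728, 10.66 against 11.64), IL18 (0.654) and PDK4 (0.642, 10.25 against 13.29). It was highest for ATP2A1 (0.722), BCAT2 (0.719), DHRS7B (0.687) and GYS1 (0.73). Creole HS array 1 was highest for MHC class I genes (0.749, 11.93 against 11.22), B2M (0.628), C4A (0.661) and SLA-DRA (0.669). It was lowest for local background (0.647), ATP2A1 (0.642), POLG (0.695) and TPI1 (0.715, 13.76 against 15.36). Creole HS array 2 was highest for glucocorticoid-responsive genes (0.629), BCKDHA (0.744), EPM2A (0.804), HMOX2 (0.738) and NDUFV1 (0.707), and lowest for HSP90AA1 (0.728) and STRA6 (0.82). Other TN arrays stood apart for mitochondrial biogenesis (array 2 lowest, 0.654), calcium handling (array 2 lowest, 0.753), MHC class I genes (array 2 highest, 0.647), CCT2 (array 2 highest, 0.66), creatine and adenylate genes (array 6 lowest, 0.793), red blood cell markers (array 3 lowest, 0.671) and COX7C (array 5 lowest, 0.726).

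Among the named genes, the only ones checked, 4 had every Creole HS array and every F1 HS array on opposite sides of their TN means. Of these, MXD1, NISCH and PAPLN were named for their difference between Creole and the other breeds. Their opposite signs therefore follow in part from that choice. The Creole minus F1 differences were -0.59 for MXD1, 0.80 for NISCH, -0.50 for PAPLN and 0.34 for PSMA1, and in limma no probe was called for this difference (smallest adjusted p = 0.823).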

How the results depend on the processing

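The count of 792 called Creole probes was 217 with spike-in scaling, 457 with no filter, 441 with slide as a fixed block, 278 with 1 probe per gene symbol, where fewer were tested, and 0 with the 12 Creole arrays alone, with array brightness or with the leukocyte mean as a covariate. It was 721 to 926 under median and 75th percentile scaling and 605 with the processed signal. With 1 array left out it ran from 0 to 1663. Without Creole TN array 1 it was also 0 with the 11 other Creole arrays alone and 45 with array weights, both chosen after seeing the data. At an adjusted p under 0.1, 138 probes were found without this array and 2970 with it. The 793 probes (1.91%) that did not overlap between groups became 521 with spike-in scaling and 893 to 1885 with an array left out, which leaves fewer arrays to overlap. No probe differed between Creole and the other breeds under any alternative run.

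Of 73 named probes that were called, 73 kept the call with the deposited table and with slide as a random block, 43 with slide as a fixed block and 28 under spike-in scaling. With the leukocyte mean as a covariate, 5 changes with no call turned sign: B2M (-0.078), CRYAB (-0.022), HSF1 (0.019), PDIA6 (-0.11) and SLC4A1 (-0.16). HSPA8 ran from -0.17 to 0.043 with an array left out. No named gene that was called turned sign in any of these fits. No paired analysis was possible because the labels carry no replicate numbers, litters or pens. Slide could be fitted as a block, as given above.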

Other observations

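Genes of nerve and of polyamine metabolism were not described above. The neurofilament gene NEFH was 5.21 to 9.01 in Creole TN and 8.92 to 9.34 in Creole HS, a difference of 2.24 (SE 0.63, limma adjusted p = 0.0521), and UCHL1, a neuronal deubiquitinase, differed by 1.11 (SE 0.33, adjusted p = 0.0659). None of 10 nerve and Schwann cell markers was called, and the list median was 0.07. At an unadjusted p under 0.05 there were 3 (30%), against 23.9% of all genes. SAT1, which acetylates spermidine and spermine for breakdown, was 10.02 to 11.56 in TN and 11.69 to 12.57 in HS, a difference of 1.09 (SE 0.30, adjusted p = 0.0518). A rise was called for 4 of 7 further SAT1 probes.

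No clock, proteasome, antioxidant, branched-chain amino acid, hypoxia or mTOR pathway gene was called by its brightest probe in limma. At an unadjusted p under 0.05 these lists held 1 of 16, 3 of 32, 7 of 36, 4 of 20, 7 of 17 and 4 of 30 genes, against 23.9% of all genes. Only the hypoxia list lay above that share. The atrophy and autophagy list had 1 called gene of 20, against 2.19% of all genes. This was the mitochondrial ubiquitin ligase MUL1 (-0.38, SE 0.10, adjusted p = 0.0415). Of 22 immediate-early genes none was called and 1 was at an unadjusted p under 0.05; ATF3, a stress-induced transcription factor, differed by 0.98 (SE 0.49, adjusted p = 0.243).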
